A study of Mus musculus with 12 samples.

Results

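Interferons signal through a short chain of proteins, and 9 genes of that chain are described here in mouse tumours: Ifngr1, Jak2, Stat2, Irf9, Irf1, Irf7, Irf8, Socs1 and Socs3. They were taken by name from the 41009 gene symbols of the deposited table, with earlier results of these data known, and other genes of the same families are counted separately. All 9 were present, and all 9 were among the 14306 genes that reached 1 FPKM (fragments per kilobase of transcript and 1e+06 fragments) in at least 3 of the 12 libraries.

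The libraries are bulk RNA-seq of tumours formed by mCherry-4T1 cells, an established line of mouse mammary carcinoma carrying a fluorescent label, in the fat pads of the mammary gland. The series' design text speaks of LLC tumours and doses of digoxin instead, and the sample labels were followed here. The hosts were female mice of the BALB/c strain, 4 to 5 weeks old per the labels' growth notes, and intraperitoneal treatment began 7 days after the cells were injected. There were 4 groups of 3 libraries each. VHH-OD-PD-1-Fc, at 4.3 mg/kg, carries both binding arms. VHH-PD-1-Fc, at 2.6 mg/kg, and VHH-OD-Fc, at 3.5 mg/kg, carry a single arm each. Ctrl received Ctrl-Fc at 5 mg/kg. A nanobody, or VHH, is the small binding unit of antibodies from camelids, Fc is an antibody's constant region, and PD-1 is a receptor that restrains T cells. OD is not spelled out in the labels, while the series title speaks of nanobodies against endogenous digoxin-like substances. The doses differ between groups, so dose and construct cannot be told apart. Nothing in the labels says whether each library of a group is from its own mouse, and the p-values therefore rest on the spread among libraries, which may be technical.

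In the canonical pathway, type I interferons act through the receptor chains Ifnar1 and Ifnar2, and interferon gamma acts through Ifngr1 and Ifngr2. Kinases of the JAK family bound to the receptors then phosphorylate STAT proteins. A complex that contains Stat2 and Irf9, named ISGF3, binds promoter elements called ISRE, while STAT dimers formed after interferon gamma bind elements called GAS. Irf1, Irf7 and Irf8 are transcription factors that are themselves induced by interferons, and Socs1 and Socs3 are induced inhibitors that shut the receptor signal down. In bulk tissue, fewer cells of a type and less RNA per cell cannot be told apart.

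The 6 libraries with the PD-1 arm stood apart from the 6 without it. The sum of FPKM was 388142 to 401179 with the arm and 327792 to 345596 without it, and 1142 genes were at 0 in all 6 libraries without the arm and above 0 in all 6 with it. No batch is labelled, and presence of the PD-1 arm and a possible batch cannot be told apart wherever a comparison crosses the sets. Against Ctrl, long transcripts tended to lower differences in both PD-1 arm groups (Spearman's rho across 13544 genes between log2 difference and length was -0.34 for VHH-OD-PD-1-Fc and -0.32 for VHH-PD-1-Fc), and across all tested genes the median log2 difference was -0.14 with VHH-OD-PD-1-Fc and -0.19 with VHH-PD-1-Fc. For VHH-OD-Fc against Ctrl rho was -0.0053, and it was 0.0049 between the 2 PD-1 arm groups, which compares libraries within a set. Estimated depth was 43.6 to 51.5 M reads (M stands for 1e+06) with the arm and 46.9 to 60.75 M without it. At that depth the lowest value of any of the 9 genes, that of Socs1 in VHH-PD-1-Fc replicate 2, stood for about 407 reads. In VHH-OD-PD-1-Fc, counting error alone was estimated at 0.0212 to 0.0503 on the log2 scale per gene, and the SD between its libraries was below 2 times that error for 8 of the 9 genes and below the error itself for Irf8 (0.0201 against 0.0363). Epithelial markers of 4T1 tumours were present throughout, with a summed level of 2670 to 2740 FPKM in VHH-OD-PD-1-Fc, 2080 to 3860 in VHH-PD-1-Fc, 2400 to 2580 in VHH-OD-Fc and 1240 to 2950 in Ctrl.

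With VHH-PD-1-Fc, 7 of the 9 genes fell relative to Ctrl, led by Stat2 and Socs1, where 32.3% of all tested genes fell. With VHH-OD-PD-1-Fc, 4 of the 9 fell, where 27.1% of all tested genes fell, and Irf7, Irf8 and Irf9 lay close to their Ctrl levels. None of the 9 passed the test with VHH-OD-Fc. Stat2 and Irf7 were higher in every VHH-OD-PD-1-Fc library than in any VHH-PD-1-Fc library, as were 13.8% of all tested genes, and neither difference passed the test across all genes.

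The promoters of 5 of the 9 genes hold the letters of an ISRE or a GAS core, and they are shown because these are the elements through which the pathway acts on its own components. The windows come from RefSeq (GRCm38.p6), which matched all 9 genes with 12 windows, and run from 250 bases before the annotated start to 50 after it, written 5′ to 3′ on the gene's strand with the matched letters in capitals. The ISRE core was searched as GAAA, any 2 bases and GAAA, and the GAS core as TTC, any 3 bases and GAA, on both strands. Of 32851 windows of the same length, 3.44% held the ISRE core and 8.3% the GAS core. The windows are Stat2 at chr10:128270248-128270547 on the plus strand, Socs1 at chr16:10785487-10785786 on the minus strand, Irf1 at chr11:53769764-53770063 on the plus strand, Irf8 at chr8:120736108-120736407 on the plus strand and Socs3 at chr11:117969317-117969616 on the minus strand.
Stat2: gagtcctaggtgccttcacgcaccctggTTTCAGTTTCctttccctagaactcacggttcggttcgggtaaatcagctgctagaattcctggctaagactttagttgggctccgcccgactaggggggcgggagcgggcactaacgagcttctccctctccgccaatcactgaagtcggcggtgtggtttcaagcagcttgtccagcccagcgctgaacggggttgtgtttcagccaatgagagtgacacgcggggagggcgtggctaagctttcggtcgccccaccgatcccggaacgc
Socs1: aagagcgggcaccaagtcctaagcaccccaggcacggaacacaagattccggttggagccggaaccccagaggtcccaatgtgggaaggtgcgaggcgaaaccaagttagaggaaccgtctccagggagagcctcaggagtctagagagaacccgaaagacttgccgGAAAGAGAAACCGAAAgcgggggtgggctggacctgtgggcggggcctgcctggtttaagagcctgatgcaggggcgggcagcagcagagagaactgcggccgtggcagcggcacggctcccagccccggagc
Irf1: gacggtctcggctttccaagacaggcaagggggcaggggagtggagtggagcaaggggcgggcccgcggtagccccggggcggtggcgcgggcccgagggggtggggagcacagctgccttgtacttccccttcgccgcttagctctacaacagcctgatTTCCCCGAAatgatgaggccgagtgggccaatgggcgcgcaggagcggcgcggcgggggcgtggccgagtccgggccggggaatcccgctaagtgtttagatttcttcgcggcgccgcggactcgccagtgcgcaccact
Irf8: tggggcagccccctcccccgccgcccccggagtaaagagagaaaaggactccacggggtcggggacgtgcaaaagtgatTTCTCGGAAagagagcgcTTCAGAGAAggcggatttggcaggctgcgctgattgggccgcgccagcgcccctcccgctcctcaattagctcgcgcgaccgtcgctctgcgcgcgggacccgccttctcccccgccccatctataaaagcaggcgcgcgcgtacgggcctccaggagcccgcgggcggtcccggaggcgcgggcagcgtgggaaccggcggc
Socs3: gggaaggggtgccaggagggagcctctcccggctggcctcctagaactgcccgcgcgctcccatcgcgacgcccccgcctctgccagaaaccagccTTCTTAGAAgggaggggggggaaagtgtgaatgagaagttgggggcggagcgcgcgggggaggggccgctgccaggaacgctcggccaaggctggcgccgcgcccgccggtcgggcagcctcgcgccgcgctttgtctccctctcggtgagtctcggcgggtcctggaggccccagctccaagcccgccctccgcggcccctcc
In Stat2 the ISRE core lies on the opposite strand, at positions -222 to -213 from the start. In Socs1, 2 ISRE cores overlap, at -83 to -74 and -77 to -68, so the capitals run together. The GAS core of Irf1 lies at -90 to -82 and that of Socs3 at -154 to -146, and Irf8 has 2, at -171 to -163 and -153 to -145. The windows of Ifngr1, Jak2, Irf9 and Irf7 hold neither set of letters. A match is a description of the sequence and not a measured binding site.

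**Figure D1:**
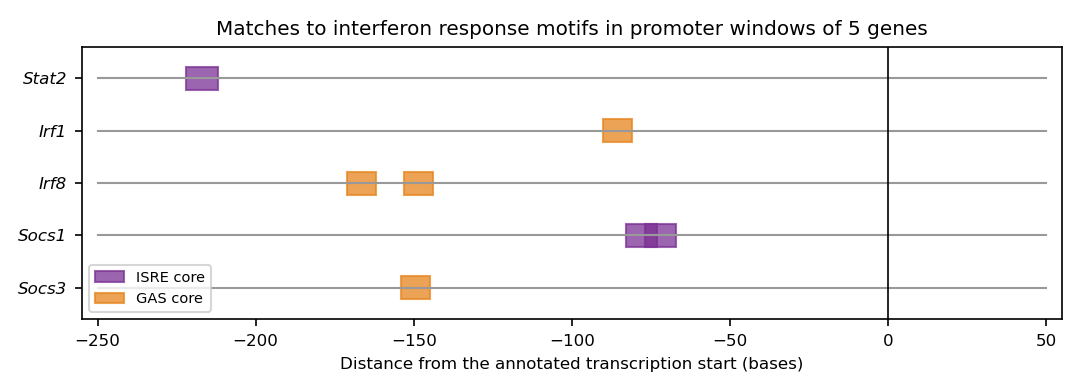
Positions of ISRE and GAS core letters relative to the annotated start (x axis, bases) in the RefSeq promoter windows of the 5 genes that hold either (rows), with the start as a vertical line. ISRE cores (purple) appear in Stat2 and Socs1, and GAS cores (orange) in Irf1, Irf8 and Socs3.

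At the receptor, Ifngr1, the ligand-binding chain of the interferon gamma receptor, varied little. It had 20.3, 20.9 and 18.5 FPKM in VHH-OD-PD-1-Fc, 20.7, 25.5 and 21.9 in VHH-PD-1-Fc, 23.2, 26.2 and 23.5 in VHH-OD-Fc, and 28.2, 23.2 and 22.3 in Ctrl. All 3 VHH-OD-PD-1-Fc libraries lay below all 3 Ctrl libraries, whereas those of the single-arm groups overlapped Ctrl. The difference on the scale of log2(FPKM + 1), used for all differences here, was -0.28 ± 0.11 (SE) between VHH-OD-PD-1-Fc and Ctrl, which did not pass (limma, Benjamini-Hochberg adjusted p = 0.061). For VHH-PD-1-Fc it was -0.11, with a 95% interval of -0.35 to 0.14, and for VHH-OD-Fc it was -0.01, with an interval of -0.26 to 0.23.

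Jak2, the kinase that binds the second chain of the interferon gamma receptor and serves many cytokine receptors, was lower with the PD-1 arm than without it in all libraries but 1. It had 24.0, 21.2 and 24.2 FPKM in VHH-OD-PD-1-Fc, 22.5, 20.9 and 40.6 in VHH-PD-1-Fc, 42.2, 41.5 and 45.2 in VHH-OD-Fc, and 44.3, 38.1 and 46.5 in Ctrl. VHH-PD-1-Fc replicate 3 lay within the range of Ctrl, and the other 5 libraries with the arm lay below every library without it. With both arms, Jak2 fell relative to Ctrl (log2 difference -0.86 ± 0.20 SE, limma adjusted p = 0.0059) and to VHH-OD-Fc (-0.86, adjusted p = 0.0063). It also fell in VHH-PD-1-Fc, both relative to Ctrl (-0.66 ± 0.20, adjusted p = 0.020) and relative to VHH-OD-Fc (-0.66, adjusted p = 0.021). Its transcripts are the longest of the 9 genes (mean annotated length 4048 bases), and long transcripts were lower with the PD-1 arm in general. The fall with VHH-PD-1-Fc was not called without replicate 1 or 2 of VHH-PD-1-Fc or replicate 1 or 3 of Ctrl. With the trends of length and GC content removed, the difference was -0.45 for VHH-OD-PD-1-Fc against Ctrl (adjusted p = 0.034) and -0.18 between VHH-PD-1-Fc and Ctrl (adjusted p = 0.36). Taking VHH-OD-PD-1-Fc as 1 sample, its mean, gave an adjusted p of 0.11 for the difference from Ctrl.

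Stat2, the STAT that is specific to type I and type III interferon signalling, showed the largest fall of the 9 genes with VHH-PD-1-Fc. It had 15.9, 15.5 and 16.4 FPKM in VHH-OD-PD-1-Fc, 10.5, 7.38 and 8.29 in VHH-PD-1-Fc, 20.98, 22.4 and 18.4 in VHH-OD-Fc, and 34.6, 20.1 and 27.0 in Ctrl. The VHH-PD-1-Fc libraries lay below all others, the VHH-OD-PD-1-Fc libraries came next, and neither overlapped the 6 libraries without the arm. Stat2 averaged 8.71 ± 1.58 FPKM in VHH-PD-1-Fc and 27.3 ± 7.24 FPKM in Ctrl (SD, n = 3 each), a log2 difference of -1.52 ± 0.17 (SE, limma adjusted p = 0.00014). With both arms it fell by 0.71 ± 0.17 on the log2 scale against Ctrl (adjusted p = 0.0080), and VHH-PD-1-Fc was lower than VHH-OD-Fc by a log2 difference of -1.16 (adjusted p = 0.00063). Between the groups that share the PD-1 arm, Stat2 was higher with both arms by 0.81 (95% interval 0.43 to 1.19), which missed the threshold over all genes (adjusted p = 0.060). For VHH-OD-Fc against Ctrl the difference was -0.36, with an interval of -0.74 to 0.02.

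Irf9, the DNA-binding partner of Stat2 in ISGF3, passed in no comparison with Ctrl. It had 18.0, 19.1 and 19.4 FPKM in VHH-OD-PD-1-Fc, 16.5, 17.7 and 15.4 in VHH-PD-1-Fc, 18.2, 15.8 and 16.0 in VHH-OD-Fc, and 21.4, 17.2 and 19.7 in Ctrl. Every treated group overlapped Ctrl. The log2 difference from Ctrl was -0.04 (95% interval -0.26 to 0.18) for VHH-OD-PD-1-Fc, -0.22 (-0.44 to -0.00) for VHH-PD-1-Fc and -0.21 (-0.43 to 0.01) for VHH-OD-Fc, with limma adjusted p of 0.77, 0.089 and 1. Irf9 lies on the same strand as Rnf31, with which its annotation overlaps, so part of its reads may be counted for either gene.

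The ratio of Stat2 to Irf9 FPKM was formed within each library, since both proteins are parts of ISGF3. It was 0.881, 0.809 and 0.848 in VHH-OD-PD-1-Fc, 0.635, 0.417 and 0.538 in VHH-PD-1-Fc, 1.15, 1.41 and 1.15 in VHH-OD-Fc, and 1.61, 1.17 and 1.37 in Ctrl. The 3 VHH-PD-1-Fc libraries held the lowest ratios, the 3 VHH-OD-PD-1-Fc libraries the next, and VHH-OD-Fc overlapped Ctrl. In 2-sided exact permutation tests, each PD-1 arm group set against Ctrl, VHH-OD-Fc or the other PD-1 arm group gave p = 0.1, the smallest that 3 libraries against 3 allow, and VHH-OD-Fc against Ctrl gave p = 0.5. Over the 18 exact tests made on 3 ratios, an exact p of 0.1 became 0.225 after Benjamini-Hochberg adjustment. The ratio of Socs1 to Irf1 gave an exact p of 0.5 for VHH-OD-PD-1-Fc, 0.2 for VHH-PD-1-Fc and 0.3 for VHH-OD-Fc against Ctrl, and that of Irf7 to Irf9 gave an exact p of 0.4 for VHH-OD-PD-1-Fc, 0.3 for VHH-PD-1-Fc and 0.6 for VHH-OD-Fc. For VHH-OD-PD-1-Fc against VHH-OD-Fc, both of these ratios also gave an exact p of 0.1. For VHH-OD-PD-1-Fc against VHH-PD-1-Fc, Irf7 to Irf9 gave an exact p of 0.1 and Socs1 to Irf1 gave 0.2. A ratio within a library does not depend on the scaling of that library.

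**Figure D2:**
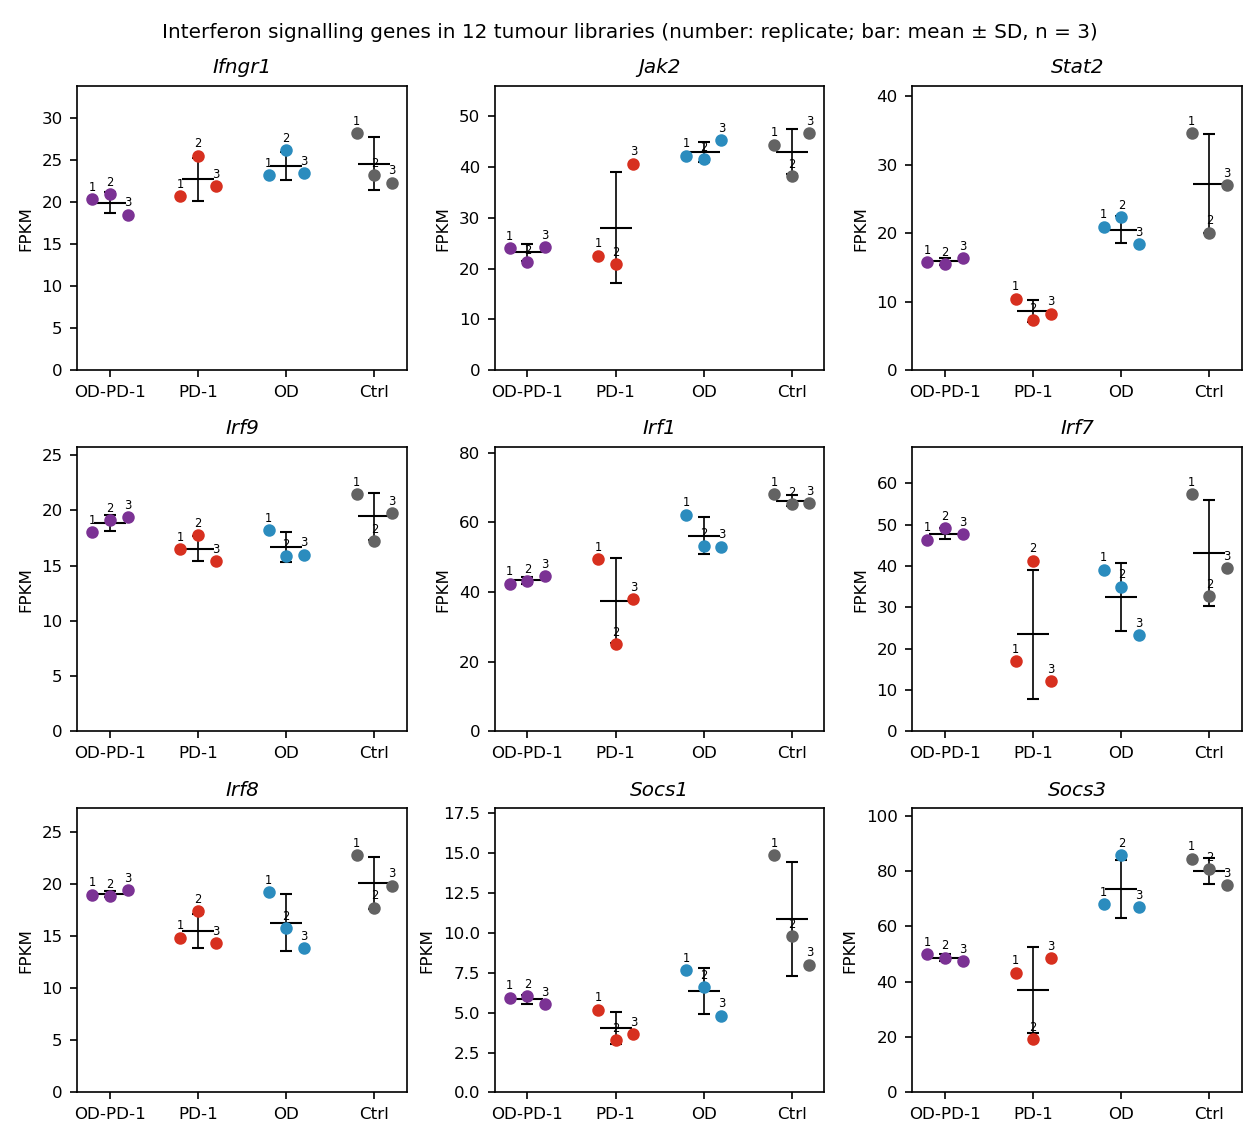
FPKM of each of the 9 genes (panels, y axis from 0) in the 12 libraries, grouped as VHH-OD-PD-1-Fc, VHH-PD-1-Fc, VHH-OD-Fc and Ctrl from left to right, with each library as a point and the group mean ± SD (n = 3). The VHH-PD-1-Fc libraries of Stat2 (7.38 to 10.5 FPKM) lie below all others, and 1 VHH-PD-1-Fc library of Irf7 (41.3 FPKM) stands far above the other 2 of its group.

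Irf1, an interferon-induced activator of antigen presentation genes, had 42.4, 43.1 and 44.6 FPKM in VHH-OD-PD-1-Fc, 49.6, 25.1 and 37.9 in VHH-PD-1-Fc, 62.3, 53.3 and 53.1 in VHH-OD-Fc, and 68.1, 65.2 and 65.6 in Ctrl. All 9 treated libraries lay below the 3 Ctrl libraries, and the 6 with the PD-1 arm lay below the 6 without it. Irf1 fell in VHH-PD-1-Fc against Ctrl by 0.86 ± 0.19 (log2, SE, limma adjusted p = 0.0037) and against VHH-OD-Fc (-0.62, adjusted p = 0.021). With both arms it fell by 0.60 ± 0.19 against Ctrl (adjusted p = 0.023). The call with both arms was lost under 7 of 24 alternative settings, among them leaving out any 1 VHH-OD-PD-1-Fc library or Ctrl replicate 1 or 3. Irf1 overlaps the annotated gene Gm17334 on the opposite strand, and whether the counting used strand is not given in the sources used here.

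Irf7, the factor that amplifies type I interferon production, was the most variable of the 9 genes. It had 46.4, 49.1 and 47.8 FPKM in VHH-OD-PD-1-Fc, 17.0, 41.3 and 12.1 in VHH-PD-1-Fc, 39.2, 35.1 and 23.3 in VHH-OD-Fc, and 57.4, 32.7 and 39.5 in Ctrl. VHH-OD-PD-1-Fc lay inside the range of Ctrl and above all libraries of both single-arm groups, while VHH-PD-1-Fc replicate 2 stood with the Ctrl libraries and its 2 companions far below them. Against Ctrl, Irf7 fell in VHH-PD-1-Fc (-0.998 ± 0.37, limma adjusted p = 0.044), a call kept under 9 of 24 alternatives and lost without replicate 1 or 3 of VHH-PD-1-Fc or of Ctrl, without replicate 1 or 2 of VHH-OD-Fc or without any 1 VHH-OD-PD-1-Fc library. The difference for VHH-OD-PD-1-Fc was 0.18 (95% interval -0.62 to 0.99). VHH-OD-PD-1-Fc was higher than VHH-PD-1-Fc by 1.18 ± 0.37, or 2.27 times on this scale, with an adjusted p of 0.16. Without VHH-PD-1-Fc replicate 2, that difference was 1.67 and passed the test (adjusted p = 0.016). It passed under 2 of 24 alternatives, both of them without that library. Irf7 overlaps Phrf1 on the opposite strand, so reads of the pair cannot be told apart if strand was not used.

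The same library, VHH-PD-1-Fc replicate 2, also held the lowest levels of Jak2, Stat2, Irf1, Socs1 and Socs3 among the 12 libraries. Its 8 macrophage markers summed to 4670 FPKM, against 1530 and 2570 FPKM in replicates 1 and 3 of its group and 1160 to 2500 FPKM in the 6 libraries without the arm. Csf1r among them was at 74.0 FPKM and above the other 11 libraries, while Adgre1, at 8.87 FPKM, lay within the range of VHH-OD-Fc (7.204 to 9.55) and of Ctrl (7.78 to 12.87). Whether the macrophage content has a part in the Irf7 level was not tested.

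Irf8, which directs the development of dendritic cells and monocytes besides its induction by interferon gamma, varied within a narrow range. It had 19.0, 18.9 and 19.4 FPKM in VHH-OD-PD-1-Fc, 14.8, 17.4 and 14.3 in VHH-PD-1-Fc, 19.2, 15.8 and 13.9 in VHH-OD-Fc, and 22.8, 17.7 and 19.8 in Ctrl. Only VHH-PD-1-Fc lay wholly below Ctrl, and its fall of 0.35 ± 0.13 on the log2 scale passed narrowly (limma adjusted p = 0.042). The call was kept under 8 of 24 alternatives and lost without replicate 1 or 3 of VHH-PD-1-Fc or of Ctrl, without replicate 2 of VHH-OD-Fc or without any 1 VHH-OD-PD-1-Fc library. The differences from Ctrl were -0.06 (95% interval -0.34 to 0.21) for VHH-OD-PD-1-Fc and -0.29 (-0.57 to -0.01) for VHH-OD-Fc, neither called. The 7 dendritic cell markers summed to 11.5 to 12.3 FPKM in VHH-OD-PD-1-Fc, 7.85 to 8.95 in VHH-PD-1-Fc, 11.8 to 13.2 in VHH-OD-Fc and 12.6 to 25.3 in Ctrl. Of the 3 dendritic cell markers that could be tested, 2 fell in VHH-PD-1-Fc against Ctrl, where 32.3% of all tested genes fell. None of the 7 was at 0 in all 12 libraries. Their part in the Irf8 difference was not tested.

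Socs1, an inhibitor that blocks JAK kinases directly, was the least abundant of the 9 genes. It had 5.94, 6.02 and 5.54 FPKM in VHH-OD-PD-1-Fc, 5.20, 3.28 and 3.65 in VHH-PD-1-Fc, 7.65, 6.58 and 4.81 in VHH-OD-Fc, and 14.9, 9.80 and 8.005 in Ctrl. All 9 treated libraries lay below the 3 Ctrl libraries. Socs1 averaged 4.04 ± 1.02 FPKM in VHH-PD-1-Fc and 10.9 ± 3.56 FPKM in Ctrl (SD, n = 3 each), a log2 difference of -1.22 ± 0.21 (SE, limma adjusted p = 0.0012), and it fell by 0.76 ± 0.21 in VHH-OD-PD-1-Fc (adjusted p = 0.016). For VHH-OD-Fc against Ctrl the difference was -0.67 ± 0.21, with a 95% interval of -1.14 to -0.20 and an unadjusted limma p of 0.0094, and its adjusted p was 1. Ctrl replicate 1 was the highest Socs1 library, and without it the difference for VHH-OD-PD-1-Fc was -0.53 and did not pass (adjusted p = 0.054). The same library held the highest level of Ifngr1, Stat2, Irf9, Irf1, Irf7 and Irf8 among the 12. Its epithelial markers summed to 1240 FPKM and its macrophage markers to 2500 FPKM, against 2950 and 2250 FPKM of epithelial and 1410 and 1300 FPKM of macrophage markers in replicates 2 and 3 of Ctrl. Their part in these levels was not tested.

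Socs3, the feedback inhibitor best known for restraining signals of the interleukin 6 family through Stat3, was the most abundant of the 9 genes in Ctrl by FPKM, which is scaled by transcript length. It had 50.03, 48.7 and 47.4 FPKM in VHH-OD-PD-1-Fc, 43.3, 19.2 and 48.5 in VHH-PD-1-Fc, 68.1, 85.7 and 67.0 in VHH-OD-Fc, and 84.5, 80.6 and 74.96 in Ctrl. The 6 libraries with the PD-1 arm lay below the 6 without it. Socs3 fell in VHH-PD-1-Fc against Ctrl (-1.19 ± 0.26, limma adjusted p = 0.0042) and against VHH-OD-Fc (-1.07, adjusted p = 0.0084). For VHH-OD-PD-1-Fc against Ctrl the difference was -0.70 ± 0.26 with an adjusted p of 0.052. Without VHH-PD-1-Fc replicate 2, which enters the shared estimate of the spread, that difference was the same and its adjusted p was 0.00051. It was called under 8 of 24 alternatives. With length and GC trends removed it was -0.62 and not called (limma adjusted p = 0.14).

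Read as an order of group means, Ctrl was highest for 8 of the 9 genes, the exception being Irf7, for which VHH-OD-PD-1-Fc was highest. VHH-PD-1-Fc was lowest for 7 genes and VHH-OD-PD-1-Fc for Ifngr1 and Jak2. How often all tested genes show such an order was not counted. Their median log2 difference from Ctrl was -0.19 for VHH-PD-1-Fc, -0.14 for VHH-OD-PD-1-Fc and -0.02 for VHH-OD-Fc. Of the 27 steps between neighbouring groups in the orders of the 9 genes, 1 passed the test. That was the step of Jak2 between VHH-PD-1-Fc and VHH-OD-Fc (limma adjusted p = 0.021). It was lost under 8 of 24 alternatives, among them the removal of length and GC trends (-0.19, adjusted p = 0.33) and leaving out VHH-PD-1-Fc replicate 1 or 2 or VHH-OD-Fc replicate 3. A moderated F test over the 4 groups called Jak2, Stat2, Irf1, Socs1 and Socs3, 5 of 9, against 49.7% of all tested genes.

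**Figure D3:**
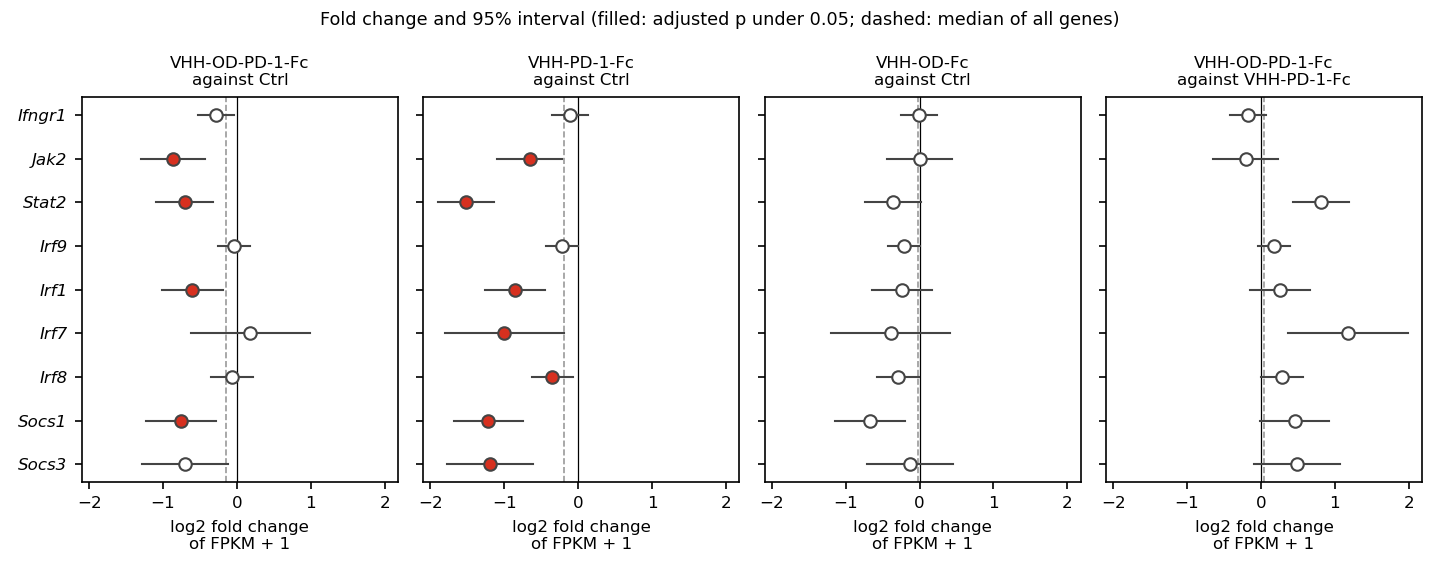
Log2 differences of the 9 genes (rows) with 95% intervals from the limma fit on log2(FPKM + 1) (x axis), for each treated group against Ctrl and for VHH-OD-PD-1-Fc against VHH-PD-1-Fc. Filled points passed at an adjusted p under 0.05: 4 genes for VHH-OD-PD-1-Fc, 7 for VHH-PD-1-Fc and 0 for VHH-OD-Fc against Ctrl, and 0 between the PD-1 arm groups.

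Counted together against Ctrl, 4 of the 9 genes fell with VHH-OD-PD-1-Fc and none rose, where 27.1% of all tested genes fell. With VHH-PD-1-Fc, 7 of the 9 fell and none rose, where 32.3% of all tested genes fell. With VHH-OD-Fc, 0 of the 9 passed in limma, as did 0% of all genes. Unadjusted, 2 of the 9, Irf8 and Socs1, had a limma p under 0.05. Ordered by p, they were number 363 and number 59 of 14306 genes. The median log2 difference over the 9 genes was -0.60 for VHH-OD-PD-1-Fc, -0.86 for VHH-PD-1-Fc and -0.24 for VHH-OD-Fc, against -0.14, -0.19 and -0.02 over all tested genes. These comparisons share the Ctrl libraries. By position alone, 6, 5 and 2 of the 9 genes had every treated library below every Ctrl library, where the shares of all tested genes were 41.4%, 33.7% and 6.7%.

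The calls against Ctrl depended on the scale to different degrees. The median over all genes moved with the scaling, and with VHH-PD-1-Fc 4615 genes fell and 2092 (14.6%) rose as deposited, 6793 fell and 1339 rose when each library was rescaled to TPM, and 2879 fell and 3145 rose with median-of-ratios scaling. For VHH-PD-1-Fc against Ctrl, Stat2, Irf1, Socs1 and Socs3 fell under all 24 alternatives, Jak2 under 15, Irf7 under 9 and Irf8 under 8. With length and GC trends removed, the falls were -1.30 for Stat2, -0.78 for Irf1, -0.94 for Socs1 and -1.11 for Socs3. For VHH-OD-PD-1-Fc against Ctrl, Jak2 and Stat2 fell under 23 alternatives, Socs1 under 19 and Irf1 under 17. Libraries of VHH-OD-PD-1-Fc lay much closer together than those of the other groups. The median SD of log2 values over the 9 genes was 0.040 in VHH-OD-PD-1-Fc, 0.28 in VHH-PD-1-Fc, 0.14 in VHH-OD-Fc and 0.17 in Ctrl. Taking their mean as 1 sample left 0 of the 9 genes called against Ctrl, where 1312 genes of the whole table still passed.

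**Figure D4:**
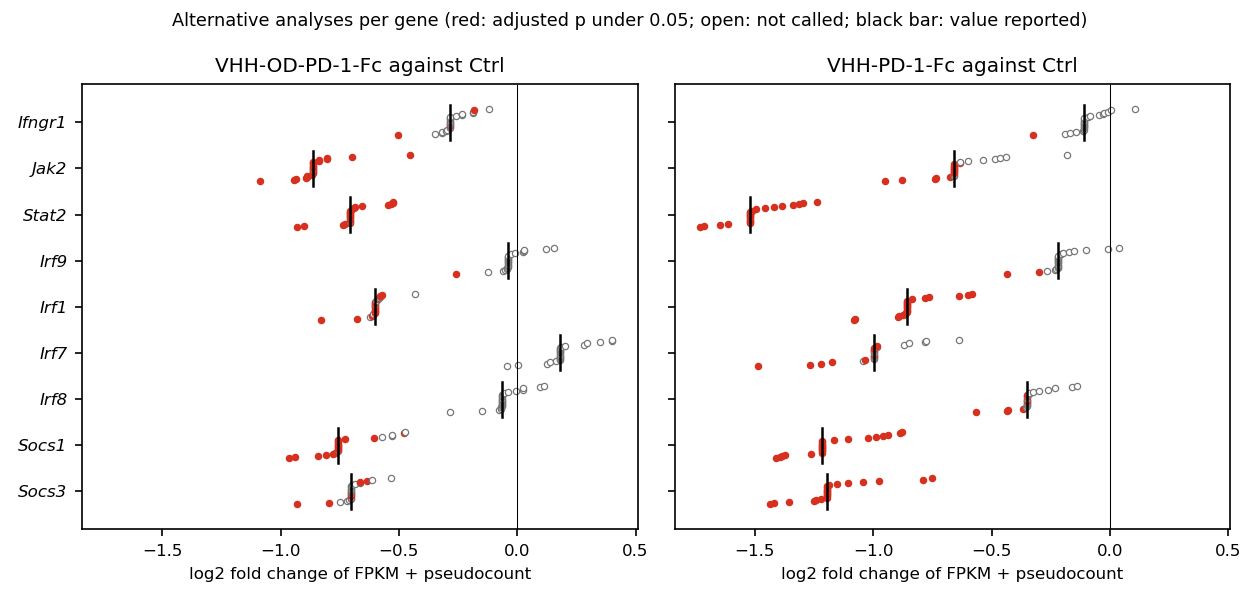
Log2 differences (x axis) of the 9 genes (rows) for VHH-OD-PD-1-Fc and VHH-PD-1-Fc against Ctrl, with a point for each of the 24 alternative settings, red where the adjusted p was under 0.05 and open where it was not, and a black bar at the value given in the text. All 24 points of Stat2, Irf1, Socs1 and Socs3 are red and below 0 for VHH-PD-1-Fc, while those of Irf7 spread to both sides of 0 for VHH-OD-PD-1-Fc and none of them is red.

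Between the groups that share the PD-1 arm, VHH-OD-PD-1-Fc against VHH-PD-1-Fc, 0 of the 9 genes passed, where 0.839% of all tested genes passed. Unadjusted, 3 of the 9 (Stat2, Irf7 and Irf8) had a limma p under 0.05. The largest of those 3, 0.046 for Irf8, was number 2087 of 14306 genes ordered by p. All 3 VHH-OD-PD-1-Fc libraries lay above all 3 VHH-PD-1-Fc libraries for Stat2, Irf9, Irf7, Irf8 and Socs1, 5 of 9, where the share of all tested genes was 13.8%. The median difference over the 9 genes was 0.29, against 0.04 over all tested genes. Ifngr1 and Jak2 had differences below 0 (-0.18 and -0.20), with 95% intervals of -0.42 to 0.07 and -0.64 to 0.23.

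Against VHH-OD-Fc, 1 of the 9 genes, Jak2, fell with VHH-OD-PD-1-Fc, where 24.5% of all tested genes fell. With VHH-PD-1-Fc, 4 fell against VHH-OD-Fc (Jak2, Stat2, Irf1 and Socs3), where 28.4% of all tested genes fell. For VHH-OD-PD-1-Fc, Irf7 was above VHH-OD-Fc in all libraries (log2 difference 0.57, adjusted p = 0.23), and Ifngr1, Jak2, Stat2, Irf1 and Socs3 lay below it. The shares of all tested genes without overlap were 25.3% above and 40.4% below. These comparisons cross the sets of libraries with and without the PD-1 arm.

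The departure from additivity, the difference of VHH-OD-PD-1-Fc from Ctrl minus the differences of both single-arm groups from Ctrl, was above 0 for 7 of the 9 genes. It was largest for Irf7 (1.57 ± 0.52 SE), Stat2 (1.17 ± 0.25) and Socs1 (1.13 ± 0.30), with limma adjusted p of 0.27, 0.10 and 0.19. None of the 9 passed, where 0.112% of all tested genes passed. Unadjusted, 5 of the 9 had a limma p under 0.05. The largest of those 5, 0.019 for Irf9, was number 846 of 14306 genes ordered by p. The doses differ, so it is not a strict factorial contrast.

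Around these 9 genes, other genes of the pathway were counted by role, against the 27.1% of all tested genes that fell with VHH-OD-PD-1-Fc and the 32.3% that fell with VHH-PD-1-Fc. Of the ligands, Ifng was the only one of 7 measured that reached the filter. It had 0.604, 0.881 and 1.01 FPKM in VHH-OD-PD-1-Fc, 0.321, 0.106 and 0.672 in VHH-PD-1-Fc, 0.657, 0.598 and 0.507 in VHH-OD-Fc, and 1.25, 1.58 and 0.936 in Ctrl. It fell in VHH-PD-1-Fc against Ctrl (log2 difference -0.73, limma adjusted p = 0.0067), and the difference was -0.30 in VHH-OD-PD-1-Fc (adjusted p = 0.20). Of the other receptor chains, 0 of 4 passed with VHH-PD-1-Fc, while Ifngr2 (-0.54, adjusted p = 0.021) and Ifnlr1 (-0.74, adjusted p = 0.013) fell with VHH-OD-PD-1-Fc. The type I receptor chains Ifnar1 and Ifnar2 differed from Ctrl by -0.06 and -0.23 with VHH-OD-PD-1-Fc and by -0.01 and -0.35 with VHH-PD-1-Fc, none of them called.

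Among the other kinases, all 3 fell with VHH-OD-PD-1-Fc, namely Jak1 (-0.38), Tyk2 (-0.64) and Jak3 (-0.80), and with VHH-PD-1-Fc only Jak3 did (-0.57, limma adjusted p = 0.0036). Of 5 further STAT genes tested, Stat5a, Stat5b and Stat6 fell in both PD-1 arm groups against Ctrl, by 0.52, 0.49 and 0.34 with VHH-OD-PD-1-Fc and by 0.44, 0.54 and 0.43 with VHH-PD-1-Fc on the log2 scale. Stat3 differed by -0.22 with VHH-OD-PD-1-Fc and -0.21 with VHH-PD-1-Fc and was not called. Of 7 further genes of the IRF family and its binding partners, 2 fell with VHH-OD-PD-1-Fc and 3 with VHH-PD-1-Fc. Irf5 and Irf2bpl fell in both, at -0.62 and -0.74 with VHH-OD-PD-1-Fc and at -0.65 and -0.79 with VHH-PD-1-Fc, and Irf2 (-0.36, adjusted p = 0.032) in VHH-PD-1-Fc. Of 15 further feedback regulators, 5 fell with VHH-OD-PD-1-Fc and 6 with VHH-PD-1-Fc. Socs4 was at -0.89 and the phosphatases Ptpn6 and Ptpn11 at -0.61 and -0.48 with VHH-OD-PD-1-Fc, and they were at -0.79, -0.62 and -0.47 with VHH-PD-1-Fc, all called. Counts of the IRF and feedback lists lay near the shares of all tested genes. None of these genes rose in either comparison.

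Genes downstream of the pathway were counted in the same way. Of all tested genes, 27.1% fell with VHH-OD-PD-1-Fc (median log2 difference -0.14) and 32.3% with VHH-PD-1-Fc (median -0.19). All 17 of 17 genes listed as targets of ISGF3 fell with VHH-PD-1-Fc against Ctrl, with a median of -1.29. With VHH-OD-PD-1-Fc, 6 of 17 fell, near the share of all tested genes, with a median of -0.38. That median was the same with both-arm libraries as 1 sample. The count of 6 was 1 with length and GC trends removed, 10 with library quality weights and 11 after rescaling to TPM. Without Ctrl replicate 1 it was 4 and the median -0.23. Among those with VHH-PD-1-Fc were Cmpk2 (-1.98), a mitochondrial nucleotide kinase, Ifit2 (-1.77), an antiviral RNA-binding protein, and Ifi44 (-1.48). Of 20 genes listed as targets of interferon gamma, 17 fell with VHH-PD-1-Fc (median -1.19) and 12 with VHH-OD-PD-1-Fc (median -0.66). They included the guanylate-binding proteins Gbp3 and Gbp4, which act in cell-autonomous immunity, each at -1.97 with VHH-PD-1-Fc and -1.52 with VHH-OD-PD-1-Fc. With VHH-OD-Fc none of the 37 targets passed, where 0% of all tested genes passed and their median was -0.02. All 37 differences were below 0, with medians of -0.45 for the ISGF3 list and -0.44 for the interferon gamma list. Without Ctrl replicate 1 the medians were -0.22 and -0.36.

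**Figure D5:**
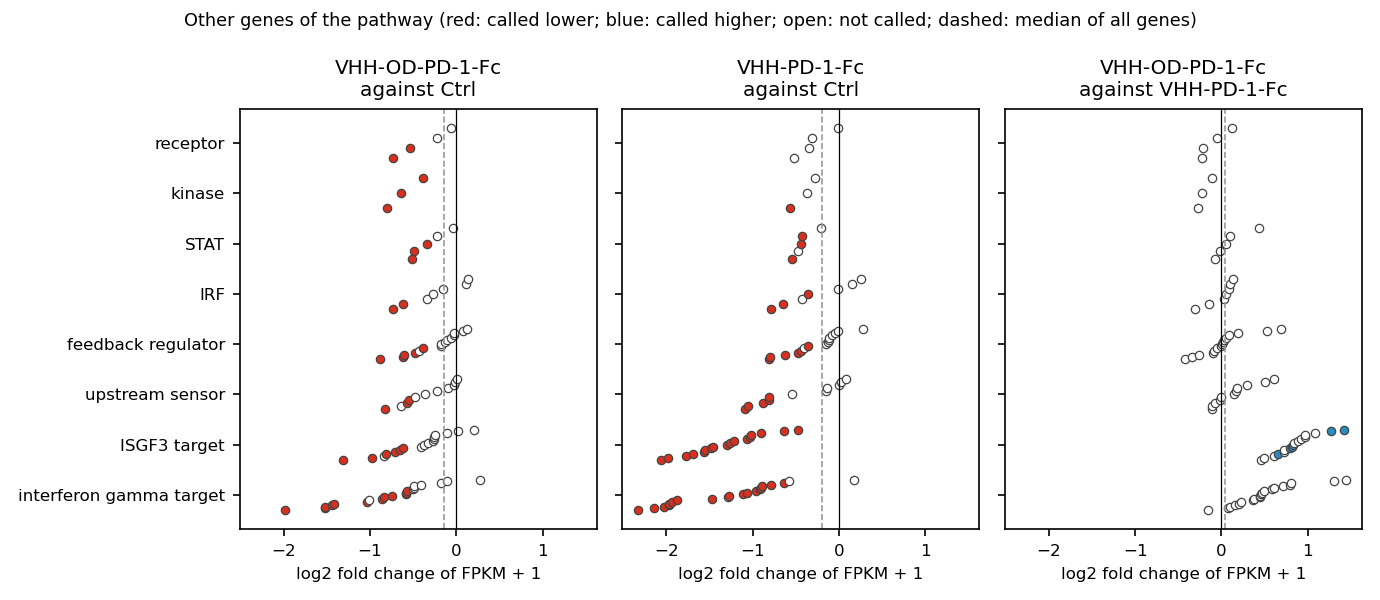
Log2 differences (x axis) of the tested genes of each pathway list by role (rows), a point per gene, for VHH-OD-PD-1-Fc and VHH-PD-1-Fc against Ctrl and for VHH-OD-PD-1-Fc against VHH-PD-1-Fc, red where a gene was called lower, blue where called higher and open where not called, with a dashed line at the median of all genes. The 17 ISGF3 targets are all red for VHH-PD-1-Fc against Ctrl, and 6 of them are blue between the PD-1 arm groups.

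Between the PD-1 arm groups, 6 of the 17 ISGF3 targets were higher with both arms than with VHH-PD-1-Fc, and none was lower, where 0.538% of all tested genes were called higher. They included Cmpk2 (1.27), Oas1a (0.83), Ifi44 (0.82) and Xaf1 (0.65). Oas1a, which makes the messenger that activates RNase L, had 29.8, 30.7 and 29.2 FPKM in VHH-OD-PD-1-Fc, against 15.4, 19.0 and 14.9 FPKM in VHH-PD-1-Fc (limma adjusted p = 0.015). All 17 targets had differences above 0. None of the 20 interferon gamma targets passed, and 19 had differences above 0, with a median of 0.45 that was 0.11 without VHH-PD-1-Fc replicate 2. Among them were Cxcl10 at 1.44 (adjusted p = 0.067) and Cxcl9 at 0.50 (adjusted p = 0.065). The count of 6 was 12 without Ctrl replicate 1 and 9 without VHH-PD-1-Fc replicate 1, 4 without any 1 VHH-OD-Fc library or without Ctrl replicate 2 or 3, 2 with a replicate block and 0 when VHH-OD-PD-1-Fc entered as 1 sample, with library quality weights, or when any 1 VHH-OD-PD-1-Fc library was left out. Of the 11 genes that sense nucleic acids or relay that signal, none passed between these groups, and against Ctrl 3 fell with VHH-OD-PD-1-Fc and 5 with VHH-PD-1-Fc, where 27.1% and 32.3% of all tested genes fell. Rigi and Ifih1, both sensors of viral RNA, fell in both, at -0.55 and -0.57 with VHH-OD-PD-1-Fc and at -1.06 and -0.87 with VHH-PD-1-Fc.

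Markers of other cell types were counted across the same comparisons. Against Ctrl, 27.1% of all tested genes fell with VHH-OD-PD-1-Fc and 32.3% with VHH-PD-1-Fc. With VHH-PD-1-Fc against Ctrl, 6 of 7 fibroblast markers fell, with a summed level of 222 to 458 FPKM in VHH-PD-1-Fc and 568 to 804 in Ctrl, and 3 of 4 tested endothelial markers fell (11.7 to 15.4 FPKM in VHH-PD-1-Fc and 21.2 to 30.4 in Ctrl). Of the T cell markers, 2 of 7 fell, and the sums were 9.32 to 23.1 FPKM in VHH-PD-1-Fc and 19.1 to 38.4 in Ctrl. Macrophage markers gave 1 lower of 8, with sums of 1530 to 4670 FPKM in VHH-PD-1-Fc and 1300 to 2500 in Ctrl. The T cell count lay near the share of all tested genes that fell, and the macrophage count lay below it. In VHH-OD-PD-1-Fc the sums were 545 to 549 FPKM for fibroblasts, 13.5 to 15.8 for endothelium, 12.5 to 13.9 for T cells and 1740 to 1760 for macrophages. Neutrophil markers summed to 1910 to 1960 FPKM in VHH-OD-PD-1-Fc, 403 to 1210 in VHH-PD-1-Fc, 460 to 1880 in VHH-OD-Fc and 624 to 917 in Ctrl. Against Ctrl, 2 of these 7 rose with VHH-OD-PD-1-Fc, where 6036 of all 14306 tested genes passed and 3878 of them fell. With VHH-PD-1-Fc, 2 of the 7 fell, near the share of all tested genes. None of the 7 passed between the PD-1 arm groups, where 0.839% of all tested genes passed. Skeletal muscle markers, none of them called, summed to 154 to 160 FPKM in VHH-OD-PD-1-Fc, 4.24 to 28.3 in VHH-PD-1-Fc, 11.0 to 1820 in VHH-OD-Fc and 6.70 to 222 in Ctrl. NK cell markers summed to 8.75 to 11.0 FPKM in VHH-OD-PD-1-Fc, 4.97 to 10.2 in VHH-PD-1-Fc, 4.62 to 10.2 in VHH-OD-Fc and 11.1 to 37.9 in Ctrl. B cell markers were low with both arms, at 0.418 to 0.904 FPKM, against 1.56 to 30.8 in Ctrl. No marker of these lists was at 0 in all 12 libraries, and their part in the differences of the 9 genes was not tested.

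How the 9 genes varied together was described within each set of 6 libraries, since the sets differ. Irf7, Irf8 and Irf9 ran closely in parallel, with a Pearson's r of log2 values of 0.975 with the arm and 0.939 without it for Irf7 and Irf8, and 0.952 and 0.946 for Irf8 and Irf9. Stat2 and Socs1 also ran in parallel (0.941 and 0.795), as did Irf1 and Socs1 (0.804 and 0.851). Jak2 and Ifngr1 had values of r near 0 to each other (-0.0548 with the arm and -0.00653 without it). With the arm, Ifngr1 ran opposite to Irf1 (-0.878), Socs3 (-0.845), Stat2 (-0.826) and Socs1 (-0.803), and without it the values for the same genes were 0.0215, 0.678, 0.608 and 0.526. Of the 6 libraries with the arm, VHH-PD-1-Fc replicate 2 had the highest Ifngr1 (25.5 FPKM) and the lowest Irf1, Socs3, Stat2 and Socs1. Jak2 ran opposite to Irf7 (-0.720) and Irf9 (-0.702) with the arm, against 0.107 and 0.380 without it. Of the same 6 libraries, VHH-PD-1-Fc replicate 3 had the highest Jak2 (40.6 FPKM) and the lowest Irf7 and Irf9 (12.1 and 15.4 FPKM). How far 1 library sets these values was not tested. All values of r rest on 6 libraries each, which share 2 treatment groups, their depth and their scaling, and they carry no test. With the arm, 3 of the 6 are the VHH-OD-PD-1-Fc libraries, which lay much closer together than those of other groups.

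Across all tested genes, the closest patterns by the smaller of the 2 values of r were those of Tap1 and Tap2 for Irf1 (0.926 and 0.917), which encode the peptide transporter of antigen presentation. For Irf9 they were those of Irf8 (0.946) and Tgfbi (0.941), for Irf8 those of Irf9 and Irf7 (0.939), and for Irf7 those of Tlcd1 (0.970) and Ms4a4c (0.945). For the other members the closest genes were Itgb7 and Alg8 for Stat2 (0.967 each), Zdhhc18 for Socs1 (0.952), Pin4 and Uqcc2 for Socs3 (0.964 and 0.961), AI987944 and Katnbl1 for Jak2 (0.948 and 0.938), and Scamp5 and Pnkd for Ifngr1 (0.970 and 0.937). With 14306 genes and 6 libraries a set, high values occur for any gene, and 4 to 22 genes were above 0.9 for each of the 9.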

How the data were processed

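Per the labels' protocols, poly(A) RNA of tumours was sequenced as paired reads. The authors deposited FPKM values of 41009 gene symbols in 12 libraries, and fastp 0.22.0, HISAT2 2.2.1 and the human build GRCh38 are named in the submitters' processing notes, although the symbols are those of mouse. Neither the counting tool nor its annotation or use of strand is stated there. Labels and columns of 1 group read OD-Fc in the title and VHH-OD-Fc as treatment. Depth was estimated from low FPKM values, of which 95.4% to 96.5% lay within 0.05 of a whole read.

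The 2-sided tests, by limma 3.58.1 under R 4.3.3, used log2(FPKM + 1), which understates the change of low genes, in 1 fit of all 12 libraries (8 residual and 3.03 prior degrees of freedom). Benjamini-Hochberg adjustment ran over 14306 genes with at least 1 FPKM in at least 3 libraries, with calls under 0.05. The fit was tested on simulated data with independent normal noise and the same SD per gene in every group. That test does not cover groups of unequal spread, as found here, or libraries that are not independent. Alternatives changed the pseudocount, filter, scaling, length and GC trends, samples, weights, replicate block and libraries. Lengths and overlaps came from GENCODE M21 by symbol, and promoters from RefSeq (GRCm38.p6).

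The 9 genes and the lists were chosen with earlier results of these data known. Named genes of the lists were the receptor chains and STAT genes, and of other lists up to 4 of smallest p for VHH-PD-1-Fc against Ctrl and for VHH-OD-PD-1-Fc against VHH-PD-1-Fc. Of the genes so named, and of those closest in pattern to the 9, some are not reported here.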

Additional observations from a re-analysis of the deposited data

Results flagged for a closer look

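None of the 9 genes departed from additivity past the test, but 5 of the downstream targets did, as did 0.112% of all tested genes. For these the difference of VHH-OD-PD-1-Fc from Ctrl lay above the sum of the differences of VHH-PD-1-Fc and VHH-OD-Fc from Ctrl, by limma with Benjamini-Hochberg adjustment over all genes. The excess on the log2 scale was 1.04 for Oas1a, 1.42 for Ifi44, 1.89 for Cmpk2 and 0.95 for Xaf1 among the ISGF3 targets, and 1.31 for Cxcl9, a chemokine for T cells, among the interferon gamma targets. The adjusted p values were 0.046 for Oas1a, 0.013 for Ifi44, 0.022 for Cmpk2, 0.041 for Xaf1 and 0.013 for Cxcl9. Cmpk2 differed from Ctrl by -0.71 with both arms, by -1.98 in the VHH-PD-1-Fc group and by -0.62 in the VHH-OD-Fc group. None of the 5 was called with a replicate block, with both-arm libraries as 1 sample or without any 1 VHH-OD-PD-1-Fc library. A log2 shift common to all libraries of a set, with or without the PD-1 arm, cancels in this contrast. Dose, and any batch that differs between groups of a set, cannot be told apart from the constructs.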

How the results depend on the processing

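For the 7 genes with a called difference, no difference called in the text changed sign under any of the 24 alternatives. Irf9, not called, was at -0.26 and called for VHH-OD-PD-1-Fc against Ctrl after rescaling to TPM, and at 0.16 and not called with length and GC trends removed. Counts of called genes moved more, and counts over all 14306 tested genes moved as well. Pathway calls below are counted over the tested genes of all lists by role. As deposited, 6036 of all tested genes were called with VHH-OD-PD-1-Fc relative to Ctrl, and 6707 with VHH-PD-1-Fc. Relative to VHH-OD-Fc these counts were 5712 and 6095. Between the PD-1 arm groups 120 genes were called, and 16 departed from additivity. Whether pathway calls exceeded these shares of all genes was not tested. For VHH-OD-PD-1-Fc against Ctrl, 6230 of all genes fell and 1405 rose after rescaling to TPM. For VHH-PD-1-Fc against Ctrl, 2592 fell and 1229 rose with only the groups compared. For VHH-OD-PD-1-Fc against VHH-OD-Fc, 5646 fell and 1365 rose by TPM, and 4885 fell and 3139 rose with only the groups compared. Library quality weights gave 5304 lower and 3412 higher there. For VHH-OD-PD-1-Fc against Ctrl, 4 of the 9 genes were called, 7 after rescaling to TPM and 0 with the 3 libraries of both arms as 1 sample, and 2 to 6 with 1 library left out. The 36 called genes of the pathway lists became 21 with length and GC trends removed and 7 with those libraries as 1 sample (25 to 45 with 1 library left out). For VHH-PD-1-Fc against Ctrl, the 7 became 4 with no filter, by median of ratios, with length and GC trends removed and with only the groups compared (4 to 8 with 1 library left out), and the 53 pathway calls were 50 to 57 with 1 library left out. For VHH-OD-Fc against Ctrl, library quality weights gave 1 pathway call in place of 0. For VHH-OD-PD-1-Fc against VHH-PD-1-Fc, the 0 of 9 became 1 with a mean FPKM of at least 5 and 2 without the 3 libraries that stand apart (Ctrl replicate 1 and replicate 2 of either single-arm group), and 0 to 1 with 1 library left out. The 6 pathway calls became 0 with library quality weights, 0 with those of both arms as 1 sample and 15 without the 3 libraries (0 to 13 with 1 library left out). For VHH-OD-PD-1-Fc against VHH-OD-Fc, the 1 of 9 became 5 by TPM, 2 by median of ratios, 3 with trends removed, 6 with only the groups compared, 6 with weights, 0 with the libraries as 1 sample and 4 without the 3 libraries (1 to 4 with 1 left out). Its 21 pathway calls became 36, 40 and 42 by TPM, with only the groups compared and with weights, 2 with the libraries as 1 sample and 33 without the 3 libraries (11 to 34). For VHH-PD-1-Fc against VHH-OD-Fc, the 4 of 9 became 2 with no filter, 2 by median of ratios and 1 with only the groups compared (3 to 5), and the 39 pathway calls 62 by TPM (29 to 43). For the departure from additivity, 0 of 9 was 0 to 1 with 1 library left out, and the 5 pathway calls became 3 with a pseudocount of 0.1, 2 with no filter, 3 by quantiles, 0 with the libraries as 1 sample and 10 without the 3 libraries (0 to 9). The F test, whose alternatives were added after the data were seen, called 5 of 9, 9 by TPM (5 to 6 with 1 library left out). The cause of these shifts was not tested.

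Replicate numbers are not stated to pair the libraries. Deviations of same-numbered libraries from their group means correlated by -0.154 to 0.184 over 18 pairs, against -0.465 to 0.434 over 36 other pairs. These values cannot show that no pairing existed. With a replicate block, 4 of the 9 genes were called for both arms against Ctrl, 7 for the PD-1 arm alone and 0 for the OD arm alone. Between treated groups the block gave 0 for both arms against the PD-1 arm, 1 for both arms against the OD arm and 5 for the PD-1 arm against the OD arm, and it gave 0 for the departure from additivity. It left 2 pathway calls between the PD-1 arm groups and 0 for the departure from additivity.

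Across all genes, VHH-OD-PD-1-Fc against VHH-PD-1-Fc gave 120 calls, with 3 to 524 under other settings and 9 to 538 with 1 library left out, and VHH-OD-PD-1-Fc against Ctrl gave 6036, with 1312 to 9901 and 4522 to 6907. VHH-OD-Fc against Ctrl gave 0, with 0 to 4 under other settings and 0 to 1 with 1 library left out.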
